A study of Mus musculus with 15 samples.

Results

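Of the 15 RNA-Seq libraries of this experiment on cultured mouse cardiomyocytes, 10 lay at the ends of the main range of expression, and these ends cut across treatment. At one end were S1, S3, S5, S9 and S10, called the Irf7-high libraries here after the interferon regulator gene Irf7. At the other were S6, S7, S11, S12 and S15, called the Irf7-low libraries. S2, S8, S13, S14 and S16 lay in between. The 10 libraries were selected on expression, by their scores on the first principal component of log2 RPKM (a read level scaled by transcript length and by library) over 12848 genes. Every difference between the 5 and 5 libraries is therefore a description, and no test of it is given.

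The cells came from whole hearts of wild-type C57/BL6 pups aged 1 to 3 days. After 5 days in culture they spent 24 h in medium with 0.5% FBS, and treatment ran from day 6 until lysis on day 8. Controls received saline (3 libraries), and the other groups of 4 libraries received the hypertrophic peptide hormone angiotensin II (AngII) at 1 µM, the integrin-binding cyclic peptide cilengitide at a low dose of 20 nM (ldCil), or both. The Irf7-high libraries comprised 2 control (S1, S3), 1 AngII (S5) and 2 ldCil libraries (S9, S10). The Irf7-low libraries comprised 2 AngII (S6, S7), 2 ldCil (S11, S12) and 1 AngII + ldCil library (S15). No control library was at the low end and no AngII + ldCil library at the high end. A whole-heart culture holds other cells beside cardiomyocytes, and in bulk RNA fewer cells of a type and less RNA per cell cannot be told apart.

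Cells that sense viral or other foreign nucleic acid make type I interferon, which acts through the receptors IFNAR1 and IFNAR2 to switch on antiviral genes, among them Irf7, whose product in turn drives more interferon. Bacterial products and interleukin-1 act mainly through NF-kB, which switches on chemokines, acute-phase proteins and its own inhibitors. Heart fibroblasts, macrophages, endothelial cells and cardiomyocytes can all mount parts of these programmes.

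The first component held 49.0% of the variance, against 11.4% for the second. The scores of the Irf7-high libraries were 37.3 in S1, 43.0 in S3, 47.9 in S5, 43.2 in S9 and 40.3 in S10. Those of the Irf7-low libraries were −41.7 in S6, −39.4 in S7, −39.6 in S11, −38.0 in S12 and −42.0 in S15. The members nearest to the middle were thus S1 at 37.3 and S12 at −38.0, and the nearest libraries left out were S2 at 14 and S16 at −24.7. Each end was narrower than the gap to its neighbour, whereas the libraries between the ends were spread out.

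Pairs of these 10 libraries were sorted by end and by treatment. As the ends were chosen on expression, wider differences between ends follow from the choice and do not measure the part of treatment. In 4 pairs of the same end and the same treatment, the median absolute difference over all genes was 0.118 to 0.281 on the log2 scale. In 16 pairs of the same end and different treatments it was 0.104 to 0.363. It was 0.307 to 0.504 in 6 pairs that shared a treatment and lay at opposite ends, and 0.285 to 0.528 in 19 pairs that shared neither. The number of genes at least 2-fold apart was 39 to 1158 within an end and 1292 to 2881 between ends. The nearest pair among these 10 libraries joined different treatments, AngII S7 and ldCil S12, at 0.104 and with 39 genes at least 2-fold apart. Over all 15 libraries the smallest median difference was between 2 of the same treatment, AngII + ldCil S13 and S14, at 0.0988 with 132 such genes. S5 lay farthest from the rest of its end (0.336 to 0.363), as far as some pairs at opposite ends, and at the low end S11 and S15 were 0.337 apart.

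**Figure D1:**
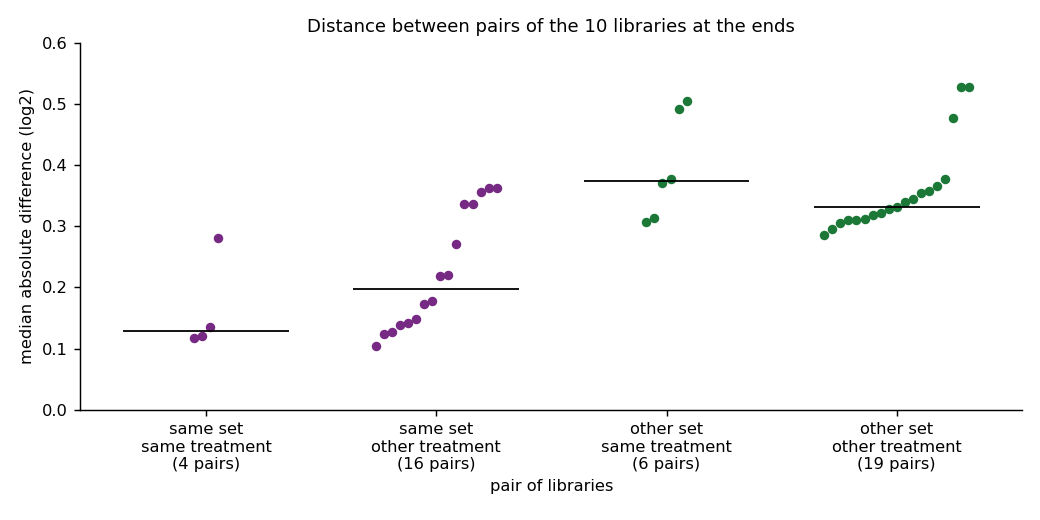
Each point is 1 pair among the 10 libraries at the ends, the y axis gives the median absolute log2 difference over 12848 genes, and the horizontal lines are medians of the pairs. Pairs at opposite ends had medians of 0.374 (same treatment) and 0.332 (other treatment), against 0.128 and 0.198 for pairs at the same end.

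The ends also differed in their lowest values. The lowest log2 RPKM over the 14337 genes of the table was −6.48 to −5.73 in the Irf7-high libraries and −3.39 to −2.82 in the Irf7-low libraries, and 1286 to 1766 against 950 to 1194 genes lay below 0. In between, the lowest value was −5.84 in S2, −5.11 in S13 and −4.31 in S14, against −2.82 in S8 and −2.89 in S16. In these libraries 505 to 1878 genes lay below 0. The median, 3.59, was the same in all libraries after the normalisation. Depth per library is unknown, and its part in the split was not tested. Values below 0 can stand for few reads, so a difference that starts from them is given on the log2 scale and not read as a fold.

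Irf7 (ENSMUSG00000025498, chr7:141262706-141266481, minus strand, GRCm38) encodes the factor that amplifies type I interferon production. Its log2 RPKM was 6.59, 7.26, 6.24, 7.01 and 6.88 in S1, S3, S5, S9 and S10, the order kept below for Irf7-high libraries. It was 1.20, 1.15, 0.71, 0.60 and 0.14 in S6, S7, S11, S12 and S15, the order kept below for Irf7-low libraries. In S2, S8, S13, S14 and S16, the order kept for libraries in between, it was 5.57, 2.30, 3.11, 3.30 and 0.46. The ends differed by 6.04 and did not overlap, and S16 lay inside the range of the low end.

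Treatment labels took no part in the choice, so treatment was tested on the first component and on Irf7. The mean component score was 31.4 ± 15.4 (SD, n = 3) in control, −10.8 ± 41.7 in AngII, 1.49 ± 46.6 in ldCil and −14.3 ± 23.1 in AngII + ldCil libraries (n = 4 each). In 2-sided exact permutation tests, adjusted over 4 comparisons, AngII differed from control by −42.2 (p = 0.171, adjusted p = 0.343), and ldCil differed from control by −29.9 (p = 0.4, adjusted p = 0.533). AngII + ldCil differed from control by −45.7, at the smallest p that 3 against 4 libraries allow in this exact test, 0.0286, and an adjusted p of 0.114. AngII + ldCil and AngII differed by −3.53 (exact permutation p = 0.943, adjusted p = 0.943). No comparison passed after adjustment, and AngII + ldCil could not have passed alone, since all of its libraries already lay below the 3 control libraries and 35 assignments allow no smaller p. The SD within AngII (41.7) and ldCil (46.6) exceeded the difference of each from control or came close to it, whereas that within AngII + ldCil (23.1) was smaller than its difference of −45.7.

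Mean Irf7 was 6.47 ± 0.85 in control (n = 3), 2.72 ± 2.40 in AngII, 3.80 ± 3.63 in ldCil and 1.75 ± 1.69 in AngII + ldCil libraries (n = 4 each). In the limma fit over all genes the difference from control was −3.75 for AngII (standard error 1.64, unadjusted p = 0.0381, adjusted p = 0.782) and −2.68 for ldCil (adjusted p = 0.966). For AngII + ldCil it was −4.72 (unadjusted p = 0.012, adjusted p = 0.849), and AngII + ldCil stood −0.97 from AngII (standard error 1.52, adjusted p = 1). Within 1 treatment the gap was of a similar size: the ldCil libraries S9 and S10 stood 6.29 above S11 and S12, and the AngII library S5 stood 5.07 above S6 and S7. Across treatments at the same end it was smaller: ldCil S9 and S10 differed from control S1 and S3 by 0.02, and at the low end ldCil S11 and S12 from AngII S6 and S7 by −0.52. As the ends were chosen on expression, wide gaps between ends and narrow ones within an end follow from the choice. They do not measure the part of treatment in Irf7. AngII S5, at 6.24, was the lowest of the high end. The share of variance between the treatment means was 38.3% for Irf7 and 23.6% for the first component. Its median was 21.8% over the 1060 genes that set the ends apart and 18.3% over all genes. With 4 treatments and 15 libraries, such a share arises even without an effect of treatment, and it was not tested.

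**Figure D2:**
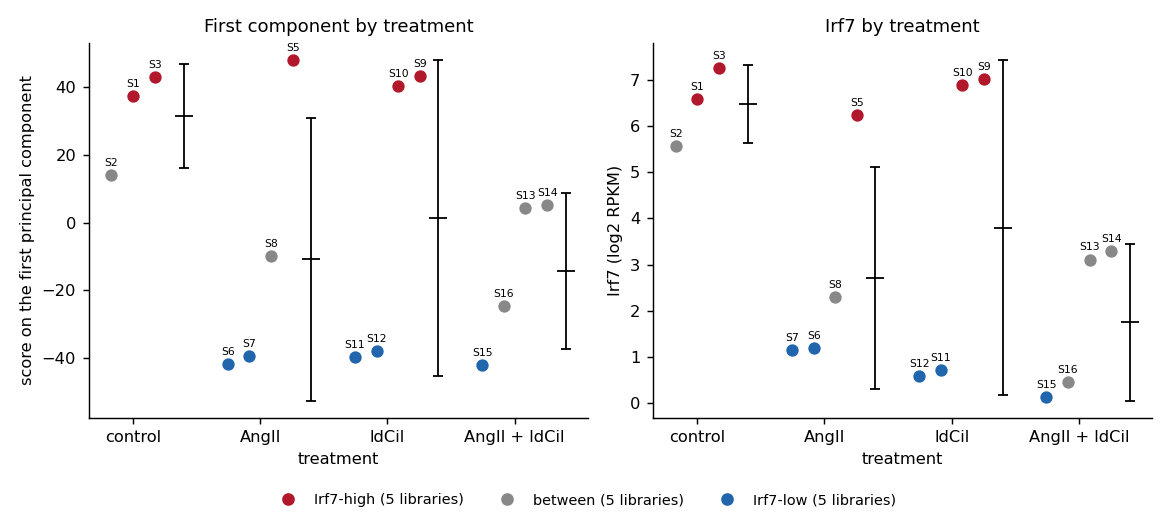
The left panel plots the first component score and the right panel Irf7 (log2 RPKM) of each of the 15 libraries by treatment, coloured by end, with the mean and SD of each treatment beside its points. AngII libraries ran from S5 at 47.9 to S6 at −41.7 on the component, and ldCil libraries from S9 at 43.2 to S11 at −39.6.

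Over all genes, limma called 0 of 12848 (0%) at an adjusted p under 0.05 for AngII, for ldCil and for AngII + ldCil against control, and 0 (0%) for AngII + ldCil against AngII. At an unadjusted p under 0.05 the counts were 776 (6.04%), 251 (1.95%), 722 (5.62%) and 331 (2.58%). Of the 1060 genes that set the ends apart, counted below, 183 (17.3%) were among them for AngII, 38 (3.58%) for ldCil, 247 (23.3%) for AngII + ldCil and 3 (0.283%) for AngII + ldCil against AngII. These 1060 genes were chosen on 10 of the same libraries. The 3 comparisons with control share the same 3 control libraries, of which 2 were Irf7-high and none Irf7-low.

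Between the ends, 522 genes (4.06% of those tested) stood at least 1 log2 unit higher in the Irf7-high libraries with no overlap, and 538 (4.19%) stood at least 1 lower. With no minimum size, 1919 genes (14.9%) were higher and 2007 (15.6%) lower without overlap. These shares are the background for each gene list below, and as the rule chose the libraries on the same values, nothing is read from the lists' counts beyond a description. Without S5, which lay farthest from its end, the counts set apart by at least 1 were 527 higher and 568 lower, and without S11 they were 546 and 628. With a library left out, the rule of no overlap is easier to meet, so these larger counts are no check of it. The median difference over all genes was −0.05, and 5884 genes (45.8%) were higher in the Irf7-high libraries and 6964 lower, whatever the size. Of genes with a mean of 0 to 2, 8.15% were in the higher set and 11.3% in the lower, and of those over 8 the shares were 1.15% and 2.67%, so the sets were weighted to weakly expressed genes.

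Lcn2, the iron-sequestering lipocalin of the acute-phase response (chr2:32384633-32388252, minus strand, GRCm38), had the largest difference, 9.82. Its log2 RPKM was 7.89, 8.67, 7.01, 8.31 and 8.35 in the Irf7-high libraries and −2.04, −1.70, −1.23, −2.24 and −1.70 in the Irf7-low libraries. Cxcl5, a chemokine that attracts neutrophils, had values of 8.77, 9.23, 9.11, 9.09 and 9.10 against −0.18, −0.96, −0.51, −0.20 and −0.12, a difference of 9.45. Saa3, a serum amyloid A protein, had values of 7.44, 8.20, 7.21, 7.73 and 7.78 against −0.28, −0.43, −1.06, −0.74 and 0.10, a difference of 8.15. All 3 genes were among the well expressed genes of each Irf7-high library and stood near or below 0 in each Irf7-low library. In between, Lcn2 was 5.67, −1.01, 3.97, 3.57 and −0.60, so that S8 and S16 were with the low end and S2, S13 and S14 were not.

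The other genes among the 12 with the largest higher values were the antiviral genes Ifit1 (7.41), Usp18 (6.32), Irf7 and Isg15 (6.03), and the inflammatory genes Il1b (7.11), Acod1 (6.40), Cxcl3 (6.25), Il1a (6.02) and Clec4e (5.55). Il1b and Il1a encode the interleukin-1 cytokines, Acod1 the enzyme that makes itaconate in activated macrophages, and Clec4e the macrophage receptor Mincle. Il1b was 5.27, 5.62, 5.75, 5.13 and 5.54 in the Irf7-high libraries and −1.59, −1.59, −2.24, −1.23 and −1.59 in the Irf7-low libraries. In S2 it was 0.50, above each Irf7-low library, and in S8, S13, S14 and S16 it was −2.04, −2.81, −4.06 and −1.01. Il1b thus reached a high level in the 5 Irf7-high libraries only. Irf7 was also raised over the low end in S2, S8, S13 and S14, and Lcn2 stood well above the low end in S2, S13 and S14.

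**Figure D3:**
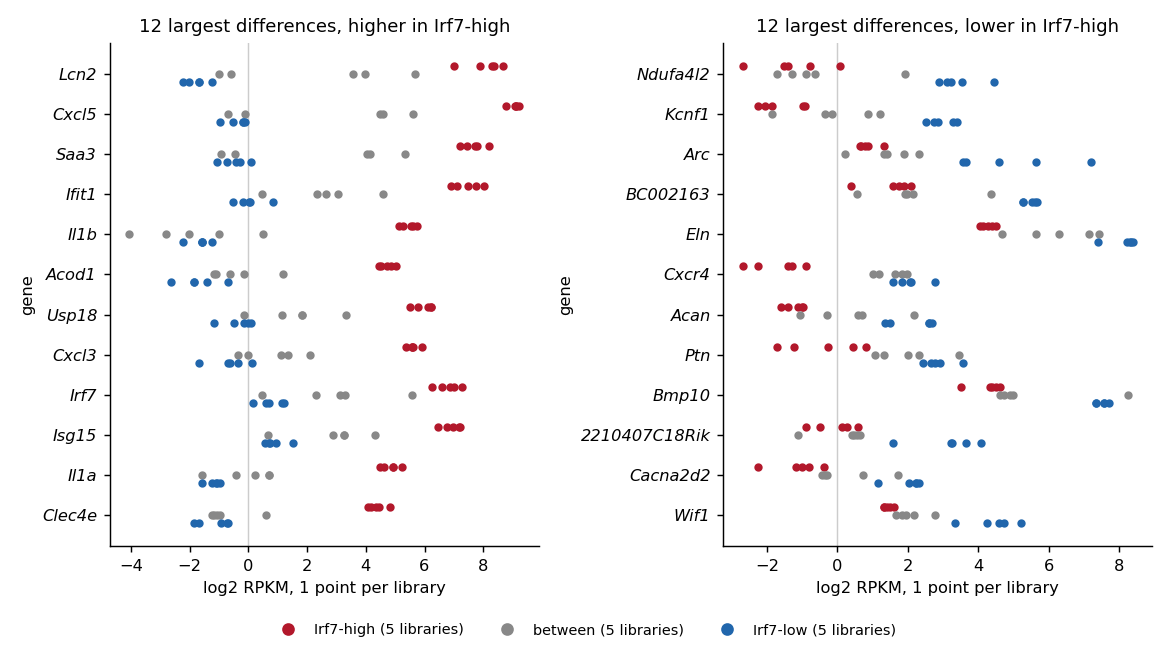
Each row is a gene and each point the log2 RPKM of 1 library, for the 12 genes with the largest mean difference in each direction between the Irf7-high and Irf7-low libraries, which were chosen for that difference. The mean difference runs from 9.82 for Lcn2 to 5.55 for Clec4e on the left, and from −4.70 for Ndufa4l2 to −2.98 for Wif1 on the right.

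Among interferon genes, the effectors showed the widest differences. All 43 antiviral effectors tested were higher in the Irf7-high libraries, 38 of them by at least 1 with no overlap, with a median of 3.26. Ifit1, which binds foreign RNA lacking a host cap modification, was 7.10, 8.04, 6.90, 7.77 and 7.47 in the Irf7-high libraries and −0.51, 0.03, 0.06, 0.85 and −0.20 in the Irf7-low libraries. Isg15, the ubiquitin-like interferon protein, was 6.47, 7.21, 6.97, 7.17 and 6.78 against 0.74, 0.56, 1.51, 0.94 and 0.69. Ifit3b (5.22), which has the near-identical neighbour Ifit3 so that its reads may be shared, and Oasl2 (5.00), of the family that senses double-stranded RNA, followed. Of the libraries in between, S2 held 4.32 of Isg15, S8, S13 and S14 held 2.87, 3.25 and 3.25, and S16 held 0.67, within the low end.

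The sensors upstream of interferon were higher as well, 12 of 13, with 10 set apart by at least 1 and a median of 1.85. Zbp1, a sensor of Z-form nucleic acid, differed by 5.19, and the RNA sensor genes Ifih1 (MDA5), Dhx58 (LGP2) and Ddx58 (RIG-I) by 3.81, 3.51 and 3.26. Ddx58 was 6.05, 6.56, 5.75, 6.54 and 6.34 in the Irf7-high and 2.92, 3.02, 2.77, 3.11 and 3.12 in the Irf7-low libraries. Expression of these sensors was detectable at both ends for Ddx58 and Ifih1, and near or below 0 at the low end for Zbp1 and Dhx58.

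Of 16 genes of interferon signalling (transcription factors, receptors, kinases and inhibitors), 8 were set apart by at least 1, all higher, and the median was 0.99. Stat2, which carries the interferon signal to the nucleus, differed by 2.16, and Usp18, which removes ISG15 and restrains the receptor, by 6.32. Usp18 was 5.52, 6.23, 6.12, 6.23 and 5.78 against −1.17, −0.14, −0.49, 0.08 and −0.00. Irf3, the factor that is present before stimulation, was lower without overlap at −0.50, and the receptor genes Ifnar1 (0.26) and Ifngr1 (−0.07) differed little. These 3 were picked after their values were seen.

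The MHC class I list, which covers antigen presentation to cytotoxic T cells, had 18 of 18 genes higher, 15 of them by at least 1 with no overlap, and a median of 1.97. Psmb8, an immunoproteasome subunit, was 3.89, 4.17, 4.05, 3.95 and 4.03 in the Irf7-high libraries and 0.04, 0.05, 0.56, 0.65 and 0.59 in the Irf7-low libraries. H2-D1, a classical class I heavy chain, was 8.25, 8.44, 7.28, 8.01 and 8.14 against 5.10, 5.27, 4.71, 5.23 and 4.88, and S2 at 7.86 reached the high range. H2-Q7 and H2-Q4 differed by 3.07 and 2.88, but class I genes share long stretches and their reads may be split among copies. The constitutive proteasome core, by contrast, had a median of 0.24, with 20 of 20 genes higher and 0 by at least 1.

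Promoters of many interferon genes hold a short sequence through which IRF factors are known to act. The genes below were grouped by their expression in these libraries or by known function, so the shares are a description. Windows of 250 bases before the RefSeq gene start (build GRCm38.p6) were found for 9547 of the 12848 genes and searched for GAAANNGAA, from the core of the interferon-stimulated response element, and on the other strand for TTCNNTTTC. A match was present in 702 of the 9547 genes (7.35%) and in 7.13% of all 32851 windows of the table. It was present in 72 of the 393 genes with a window in the higher set (18.3%), in 21 of 345 in the lower set (6.09%) and in 15 of 33 antiviral effectors (45.5%). The stretches up to the gene start are shown for the interferon genes named above that held a match, 5′ to 3′ along the gene, with matches in capitals.
Ifit1: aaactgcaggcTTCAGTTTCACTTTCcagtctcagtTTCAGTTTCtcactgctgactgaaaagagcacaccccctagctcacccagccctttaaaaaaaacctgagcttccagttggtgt
Isg15: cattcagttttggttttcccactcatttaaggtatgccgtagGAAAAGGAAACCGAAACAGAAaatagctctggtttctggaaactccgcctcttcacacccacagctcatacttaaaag
Ifit3b: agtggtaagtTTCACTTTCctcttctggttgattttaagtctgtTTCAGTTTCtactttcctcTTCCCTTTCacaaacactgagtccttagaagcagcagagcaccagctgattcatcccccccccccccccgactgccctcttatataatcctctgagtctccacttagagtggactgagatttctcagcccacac
Ifih1: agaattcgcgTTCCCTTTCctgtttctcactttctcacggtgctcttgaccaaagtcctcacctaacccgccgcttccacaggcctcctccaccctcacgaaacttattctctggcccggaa
Stat2: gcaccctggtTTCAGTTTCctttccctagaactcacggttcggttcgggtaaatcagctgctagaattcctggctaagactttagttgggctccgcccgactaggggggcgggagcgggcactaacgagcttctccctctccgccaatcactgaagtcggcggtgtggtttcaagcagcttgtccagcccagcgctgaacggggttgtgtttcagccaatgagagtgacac
The Ifit1 stretch is chr19:34640769-34640888 on the plus strand and holds 3 matches, and the Isg15 stretch is chr4:156200819-156200938 on the minus strand with 3 in 1 run. Ifit3b (chr19:34607760-34607956, plus strand) also holds 3, and Ifih1 (chr2:62646256-62646377, minus strand) and Stat2 (chr10:128270267-128270497, plus strand) hold 1 each. The Irf7 window held no match, and 8 of 56 cytosolic ribosomal protein genes (14.3%) held one. A match is a run of letters and says nothing of binding.

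NF-kB sites were searched in the same windows as GGNNTTTCC and, on the other strand, GGAAANNCC. This motif was present in 603 of the 9547 genes (6.32%) and in 4.93% of all windows, in 47 of 393 genes of the higher set (12%) and in 27 of 345 of the lower set (7.83%). It can overlap the interferon motif, and 49 genes held both. Of NF-kB feedback genes 6 of 8 held it (75%), of chemokines and cytokines 4 of 12 (33.3%) and of antiviral effectors 6 of 33 (18.2%). Saa3 and Cxcl3, among the 12 genes with the largest higher values, are shown with the match in capitals. Capitals mark only the motif of their own paragraph. The Saa3 stretch also holds an interferon match, and the Isg15 stretch above an NF-kB match, both in small letters.
Saa3: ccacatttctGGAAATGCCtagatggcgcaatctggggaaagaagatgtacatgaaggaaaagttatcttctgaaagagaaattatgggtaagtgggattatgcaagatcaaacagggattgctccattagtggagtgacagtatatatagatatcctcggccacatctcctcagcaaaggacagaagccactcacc
Cxcl3: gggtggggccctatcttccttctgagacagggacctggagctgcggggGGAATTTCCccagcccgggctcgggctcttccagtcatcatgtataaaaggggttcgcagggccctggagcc
The Saa3 stretch is chr7:46715677-46715873 on the minus strand and that of Cxcl3 chr5:90785981-90786100 on the plus strand. Cxcl3 was 5.36, 5.56, 5.90, 5.57 and 5.60 in the Irf7-high libraries and 0.11, −0.35, −1.70, −0.69 and −0.63 in the Irf7-low libraries, and Saa3 was near 0 or below it at the low end, as given above.

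Among chemokines and cytokines, 16 of 17 were higher, 13 by at least 1 without overlap, with a median of 3.36. Ccl2, which attracts monocytes, was 9.10, 9.32, 9.21, 9.25 and 9.25 against 4.29, 4.22, 4.51, 4.48 and 4.39 and was well expressed at both ends. S16 had 1.61, lower than any Irf7-low library. Ccl5, which attracts T cells, differed by 5.28, with values of 4.26, 4.58, 3.56, 4.20 and 4.22 against −1.50, −1.40, −1.84, −0.63 and −0.21. Of NF-kB feedback genes, all 11 were higher and 5 by at least 1 without overlap, with a median of 0.97: the adhesion molecule Vcam1 differed by 2.51, and the inhibitors Tnfaip3, Bcl3 and Nfkbia by 1.92, 1.40 and 1.38. In the complement list of 10, C3, the central complement protein, was the outstanding gene, at 5.88, 6.47, 5.39, 6.36 and 6.46 against 1.24, 1.40, 2.24, 1.57 and 1.96, and the list median was 0.46.

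Further inflammatory groups were put together after the values had been seen, so their counts only sort the genes. The interleukin-1 family and inflammasome group had 5 of 6 genes higher by at least 1 without overlap, among them Il1rn, the receptor antagonist (3.03), and Casp4, the sensor caspase of the non-canonical inflammasome (2.58). The group of neutrophil-attracting chemokines, which also held the growth factor gene Csf2 (3.79), had 5 of 5, from Cxcl2 at 2.97 to Cxcl5. Cxcl1 was 8.28, 8.56, 7.28, 8.73 and 8.65 against 5.00, 5.13, 4.65, 4.90 and 5.03, and 1.16 in S16. Receptors for bacterial products had 6 of 10, among them Marco (4.35), Cd14 (3.36) and Tlr2 (2.90), while Tlr4, the receptor for lipopolysaccharide, differed by 0.07. Acute-phase genes had 7 of 9, with haptoglobin (Hp) at 4.55 beside Lcn2 and Saa3. The group for prostaglandins, nitric oxide and itaconate had 2 of 6, with a median of 1.05. In it Ptges, the inducible prostaglandin E synthase, was 4.80, 5.41, 5.07, 4.97 and 5.02 against −0.10, −0.05, 0.60, −0.49 and 0.01. Ptgs2 (COX-2) overlapped, with S11 at 5.56 and S5 at 5.38.

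**Figure D4:**
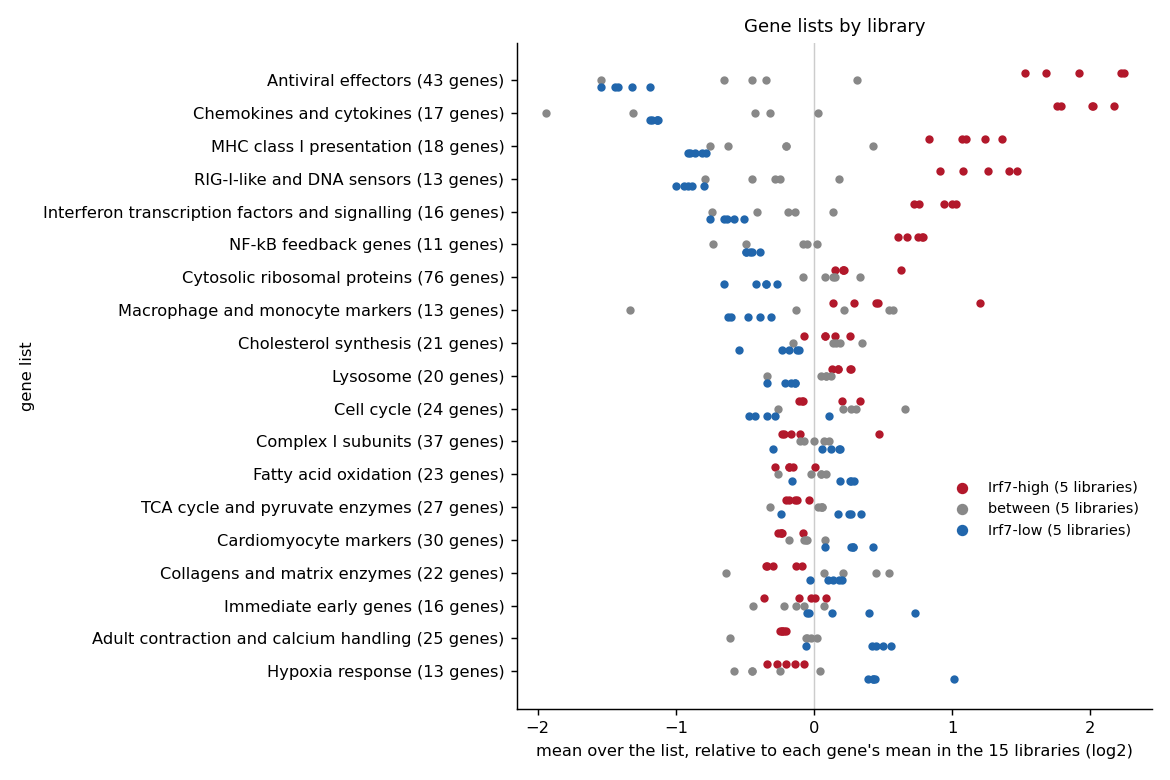
Each row is a gene list with its number of tested genes, and each point is the mean of the list in 1 library relative to each gene's mean over the 15 libraries (log2). The median over genes of the difference between the ends, which is not the distance between the points, was 3.26 for antiviral effectors, 0.70 for cytosolic ribosomal proteins, −0.10 for complex I subunits and −0.53 for hypoxia genes.

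Cell type markers were read beside these programmes. Cardiomyocyte genes dominated each library: Actc1, the cardiac actin, was 11.73, 11.73, 11.73, 11.73 and 11.54 in the Irf7-high and 11.54, 11.54, 11.40, 11.54 and 11.73 in the Irf7-low libraries. The alpha myosin gene Myh6 was 11.08, 11.27, 11.17, 11.40 and 11.40 against 11.27, 11.27, 11.27, 11.27 and 11.27, and the troponin gene Tnnt2 11.17, 11.40, 11.40, 11.27 and 11.08 against 10.99, 10.99, 11.08, 10.85 and 10.92. Values this high are steps that genes and libraries share after the normalisation, so small differences between the ends are not resolved there. Of 30 cardiomyocyte markers 25 were lower in the Irf7-high libraries, 6 of them by at least 1 without overlap, with a median of −0.28. The list mean relative to all libraries was −0.26 to −0.08 at the high end and 0.08 to 0.43 at the low end.

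Macrophage markers moved unevenly. Of 13 tested, 11 were higher, 5 by at least 1 without overlap, and Mrc1, the mannose receptor, was 1.19 log2 units lower (−1.19). The list mean was 0.14 to 1.20 at the high end and −0.62 to −0.31 at the low end. Adgre1 (F4/80) was 4.43, 4.50, 5.57, 4.62 and 4.59 against 0.78, 1.13, 1.07, 1.35 and 0.67 and Cd14 4.80, 5.19, 5.23, 4.82 and 5.01 against 1.88, 2.03, 1.88, 1.59 and 0.86. In contrast the abundant macrophage genes Lyz2 and Ctss overlapped between the ends, with Lyz2 at 6.97, 7.26, 8.61, 7.52 and 7.48 against 6.94, 7.22, 6.83, 7.32 and 7.05, and S5 had the highest Lyz2 and Adgre1 of all. Cd68 differed by 0.51. In S16 all 3 were low, with Lyz2 at 4.87, Cd68 at 2.64 and Ctss at 1.99. The part that the number of macrophages plays in the split was not tested. None of 14 lymphocyte markers and none of 10 erythroid markers was among the genes tested.

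Other cell types differed gene by gene. Fibroblast markers had a median of 0.12 over 18 genes: the matrix proteoglycan gene Dcn was 8.62, 8.88, 8.03, 8.87 and 8.92 against 5.15, 5.25, 4.86, 5.13 and 5.54, while Thy1 differed by −1.17, and Col1a1, Col1a2 and Col3a1 by 0.43, 0.17 and −0.35. Dcn and Col3a1 were lowest of all in S16, at 3.53 and 5.87. Smooth muscle and pericyte markers had a median of −0.59 over 13 genes, with Rgs5 at −1.20 and Acta2 at 0.27. Endothelial markers had a median of 0.59 over 14 genes, with Ecscr at 1.91 and the VEGF receptor Flt1 at −1.17. Of 9 epicardial markers, Aldh1a2, the retinoic acid synthesising enzyme, was higher at 2.24 and Lrrn4 lower at −1.99, and 4 neuronal markers had a median of 0.86. In each of these lists some genes were higher and others lower.

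Both Xist, transcribed in female cells, and Y-linked genes were expressed in each library. Ddx3y was 4.44, 4.56, 3.80, 4.39 and 4.35 in the Irf7-high and 5.21, 5.41, 5.20, 5.19 and 5.22 in the Irf7-low libraries, a difference of −0.94 with no overlap. Kdm5d and Uty differed by −0.83 and −0.42 without overlap, Eif2s3y by −0.49 with overlap, and Xist by −0.02. In S5, Xist was 4.37, against 5.77 to 6.12 in the other Irf7-high libraries. The share of male cells and its part in the split were not tested.

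Genes lower in the Irf7-high libraries came from several sources and differed by less. Ndufa4l2, a mitochondrial protein gene that responds to hypoxia, was −1.50, −1.40, −2.68, 0.07 and −0.78 in the Irf7-high and 3.54, 3.22, 4.45, 2.89 and 3.10 in the Irf7-low libraries, a difference of −4.70. Kcnf1, a potassium channel subunit gene, and Arc, an activity-regulated gene, differed by −4.55 and −4.06. Arc ranged from 3.57 to 7.20 within the low end. Eln, the elastin gene, was well expressed at both ends, 4.14, 4.04, 4.39, 4.49 and 4.28 against 8.33, 8.21, 7.40, 8.39 and 8.32, a difference of −3.86. BC002163 (−3.93) is annotated as a processed pseudogene, so its reads may come from another gene. The remaining genes among the 12 were the chemokine receptor gene Cxcr4 (−3.77), the aggrecan gene Acan (−3.36), the growth factor gene Ptn (−3.26), Bmp10 (−3.24), 2210407C18Rik (−3.23), the calcium channel subunit gene Cacna2d2 (−3.11) and the Wnt inhibitor gene Wif1 (−2.98).

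Bmp10, a growth factor made in the atria (chr6:87428994-87437677, plus strand, GRCm38), was 4.38, 4.32, 3.52, 4.51 and 4.61 in the Irf7-high libraries and 7.58, 7.56, 7.33, 7.35 and 7.72 in the Irf7-low libraries. The libraries in between were 4.73, 4.61, 4.90, 5.00 and 8.24, so that S16 alone was with the low end and above it. Because of Bmp10, 14 genes of atrial myocardium were looked up after the values had been seen, of which 13 were in the table and 12 passed the filter. All 12 were lower in the Irf7-high libraries, 10 of them by at least 1 without overlap, with a median of −2.23, against −0.28 for cardiomyocyte markers in general. Myl7, the atrial myosin light chain, was 6.62, 6.92, 6.96, 6.85 and 6.83 against 9.18, 9.35, 8.74, 9.29 and 9.25, and Sln, the atrial calcium pump regulator sarcolipin, was 3.64, 3.44, 4.17, 3.73 and 3.44 against 6.38, 6.40, 5.93, 6.37 and 6.72. In between, S16 again lay nearest to the low end for Myl7, at 8.48, while S8, S13 and S14 had 6.92, 6.85 and 6.81, within the high range. Nppa, the atrial natriuretic peptide gene, was the exception at −0.03. The labels give whole hearts as the source of all cells, and the share of atrial cells was not tested.

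Genes of adult contraction and calcium handling had a median of −0.49, with 21 of 25 lower and 4 by at least 1 without overlap. Hrc, a calcium-binding protein of the sarcoplasmic reticulum, was 4.54, 4.62, 3.92, 4.61 and 4.57 against 6.96, 7.09, 6.25, 6.94 and 6.99, and 2.61 in S16, below both ends. Kcnj2, which carries the inward rectifier potassium current, differed by −1.79 with overlap, since S11 had 2.64. The fetal and hypertrophy list had a median of −0.02 over 14 genes, with 4 lower by at least 1 without overlap and 0 higher. Its range was −2.33, for Myl7 of the atrial genes above, to 0.63. Tcap and Mb, a Z-disc protein and myoglobin, differed by −1.31 and −1.27, and S16 had the lowest value of each among all libraries, 5.46 and 8.11.

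Energy metabolism differed by small amounts. Complex I had a median of −0.10 over 37 genes with 0 set apart by at least 1, complexes III, IV and ATP synthase −0.18 over 38, mitochondrially encoded genes −0.24 over 12, the TCA cycle −0.25 over 27 and fatty acid oxidation −0.20 over 23. The largest single differences in them were Cox7a1 (−1.20) and Cox8b (−1.16, with overlap), muscle forms of cytochrome oxidase subunits, the pyruvate dehydrogenase kinases Pdk4 (−1.22) and Pdk1 (−1.15), and Ppara (−1.20), the fatty acid oxidation regulator. In several of these lists S5 lay above the other Irf7-high libraries and S11 below the other Irf7-low libraries.

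Of 13 hypoxia response genes 11 were lower, 5 by at least 1 without overlap, with a median of −0.53. Ankrd37 differed by −2.88, and Egln3, an oxygen-sensing prolyl hydroxylase induced by HIF, was 4.78, 5.09, 4.08, 4.59 and 4.78 against 6.40, 6.48, 6.41, 6.32 and 7.20. Bnip3, a mitophagy receptor, was 5.15, 5.60, 4.50, 4.87 and 5.32 against 6.80, 6.53, 6.88, 6.25 and 6.93. For Egln3 the libraries in between were 4.36, 4.67, 3.78, 3.78 and 3.74, so S13, S14 and S16 stood below each Irf7-high library, and Egln3 was highest in the 5 Irf7-low libraries. Glycolysis had a median of −0.22 over 18 genes, with 0 set apart by at least 1.

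Cytosolic ribosomal protein genes shifted as a block. All 76 were higher in the Irf7-high libraries and 72 did not overlap, yet 2 differed by at least 1, and the median was 0.70. Rps24 was 8.20, 8.21, 9.02, 8.28 and 8.23 against 7.39, 7.35, 7.51, 7.46 and 7.04, and Rpsa differed by 0.96. The list mean relative to all libraries was 0.15 to 0.63 at the high end and −0.65 to −0.27 at the low end. In between it was 0.15, −0.08, 0.08, 0.14 and 0.33, so S16, low for Irf7, lay within the high range. These transcripts are short, with a median longest transcript of 1100 bases against 3350 over all genes, and the median difference of the shortest genes (up to 1818 bases) was 0.04, against −0.14 for the longest (from 5282 bases). The 184 other genes with a mean over 8 and no longer than the longest of these transcripts had a median difference of −0.05. Their median length, 2560 bases, was still above that of the ribosomal genes. The part of transcript length in the shift was not tested. Mitochondrial ribosomal proteins had a median of 0.14 over 35 genes.

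Stress programmes were split. In the PERK-ATF4 list of 27 the median was 0.24, but Atf4 itself was −1.22, at 6.49, 6.87, 6.23, 6.91 and 6.79 against 7.85, 7.73, 8.23, 7.59 and 8.00, and Slc7a11, the cystine transporter gene that ATF4 and NRF2 control, was 3.05, at 4.19, 4.62, 4.47, 4.23 and 4.37 against 1.40, 0.78, 2.51, 1.08 and 0.85. ER chaperones, heat shock proteins, p53 targets and antioxidant genes had medians of 0.15, −0.00, −0.14 and −0.03. Among them Gpx3, the secreted glutathione peroxidase gene, differed by −1.45 and Nqo1 by 1.02. Hmox1, the haem-degrading enzyme gene, ranged from 6.84 to 9.80 within the low end. Immediate early genes had a median of −0.30 over 16, with Fosb at −2.12 and Egr3 at −1.78. Cholesterol synthesis had a median of 0.33, with 19 of 21 genes higher and 2 by at least 1 without overlap, Fdft1 (1.16) and Mvk (1.02), and the lysosome list 0.30, with Ctsz at 1.25. Cell cycle genes had a median of 0.34 over 24, and Tyms, the thymidylate synthase gene, was the only one set apart, at 1.16.

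Matrix genes went both ways. Collagens and their enzymes had 10 of 22 genes higher and 12 lower, with 3 lower by at least 1 without overlap. Col6a3 was 1.74, 1.99, 1.48, 2.44 and 2.13 against 5.02, 4.66, 5.13, 4.64 and 4.78, and Col15a1 and Col14a1 differed by −2.40 and −1.82. Of the 8 RGD-binding integrins, Itga8 differed by −2.80, at 1.84, 1.86, 0.99, 1.78 and 1.57 against 4.13, 4.26, 4.30, 4.54 and 4.80. Itgb8 differed by −2.04 and Itgav by 0.43. The paper names αvβ3 integrin as the target of cilengitide. No value is given here for the gene of the other subunit, Itgb3. Matrix-degrading enzymes and their inhibitors, grouped after the values were seen, had 7 of 13 genes higher and 6 lower, with a median of 0.15. Of these, 4 were higher by at least 1 without overlap and Timp3, an inhibitor gene, was lower by that measure (−1.17). The stromelysin gene Mmp3 was 5.63, 6.54, 6.27, 7.54 and 6.95 against 1.03, 0.62, 2.28, 0.91 and 1.59, and Mmp9, Mmp13 and the inhibitor gene Timp1 differed by 4.41, 2.47 and 2.16. Of 13 elastic fibre genes grouped in the same way, Eln, Mfap4 (−1.99) and Ltbp4 (−1.36) were lower and Mfap5 (1.79) was higher. The TGF-beta and YAP list had a median of −0.09, and nuclear long non-coding RNAs −0.41, with Neat1 at −1.34 and 5.22 in S16.

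The libraries in between did not take 1 common place on the path from low to high. For the 522 higher genes the median position, from 0% at the Irf7-low mean to 100% at the Irf7-high mean, was 56.7% in S2 (control), 29.4% in S8 (AngII), 47.6%, 46.6% and 9.8% in S13, S14 and S16 (AngII + ldCil). For the 538 lower genes it was 74.5%, 55.5%, 67.5%, 71.3% and 40.1%. Each library in between was thus nearer to the high end for the lower genes than for the higher ones. S16 stood apart on the third component, with a score of 48.2, and S5 on the fourth, with −47.0.

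**Figure D5:**
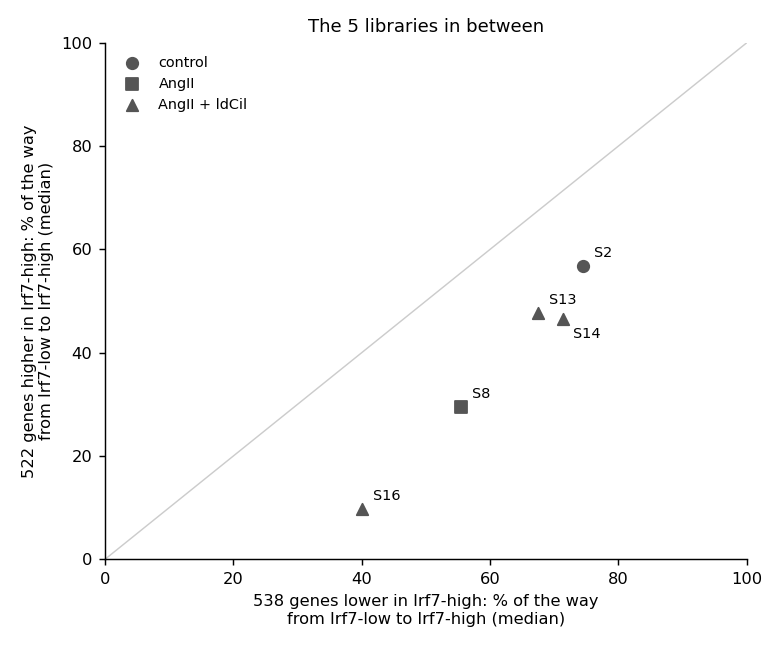
Each point is 1 of the 5 libraries in between, by its median position between the Irf7-low mean (0%) and the Irf7-high mean (100%) over the 538 lower genes (x axis) and the 522 higher genes (y axis), and the line marks equal positions. All 5 lie below the line, from S16 at 40.1% and 9.8% to S2 at 74.5% and 56.7%.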

How the data were processed

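Poly(A)-captured RNA of 15 cardiomyocyte libraries was sequenced by the study. The submitters' processing notes name HISAT2, HTSeq and the mouse genome GRCm38 (mm10). Their versions, the annotation release and the strandedness were not given in the sources used. The authors deposited log2 RPKM values after conditional quantile normalisation, which corrects for the effects of GC content and length on each gene and draws the libraries towards a common distribution, for 14337 genes. No read counts were used, so the depth of each library and its counting error are unknown.

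A mean log2 RPKM of 0 or more over 15 libraries was required, which kept 12848 genes. Principal components were computed on gene-centred values. The libraries of the 2 ends, the gene lists (42, with 8 more added after their values were seen) and the rule for naming genes were chosen with earlier results of these data known. That rule names Irf7, the 12 genes with the largest mean difference without overlap in each direction, up to 4 members of each list with the largest differences, the first 3 tested markers of each cell type list and the sex-linked genes; a member of the interferon signalling list is not reported here. Without overlap means that the 5 values of one end all lie above the 5 of the other, and a gene is set apart if its means also differ by at least 1 on the log2 scale.

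Treatment was tested on component scores by 2-sided exact permutation, and on all genes with limma 3.58.1 in R 4.3.3 (1 mean per treatment over 15 libraries, empirical Bayes with a trend, Benjamini-Hochberg adjustment). The scripts were tested on simulated data. The labels do not say that replicates are separate cultures, so p-values cover the spread between libraries only, and that spread may be technical. Positions are from GENCODE M21 of GRCm38, to which 14329 of the 14337 gene identifiers were matched, and promoters from RefSeq. Alternatives were 0.1 or 1 added to RPKM, other filters, median centring, quantile normalisation, other settings of the component and of limma, and each library left out in turn.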

Additional observations from a re-analysis of the deposited data

Results flagged for a closer look

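Within each end, 136 sets of 5 values (the largest single-gene differences and the list means) were checked for a library that stood apart by Dixon's criterion, and 19 did. Chance alone sets 1 library apart in about 1 of 20 such groups, and the lists share genes and libraries, so these are not 19 separate facts. List means are on the log2 scale, relative to each gene's mean over the 15 libraries.

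Of the 19, 11 concerned the AngII library S5 among the Irf7-high libraries. It had a Bmp10 log2 RPKM of 3.52 (others 4.32 to 4.61). Its list means stood above the others for complex I at 0.469 (others −0.233 to −0.103), complexes III, IV and ATP synthase at 0.298 (others −0.282 to −0.162) and mitochondrial ribosomal proteins at 0.372 (others −0.0727 to 0.0123). They also stood above the others in cytosolic ribosomal proteins at 0.629 (others 0.15 to 0.221), proteasome core subunits at 0.565 (others 0.00644 to 0.0614) and cardiomyocyte markers at −0.081 (others −0.259 to −0.232). S5 was below the others in sex-linked genes at −0.418 (others −0.176 to −0.128) and PERK-ATF4 genes at −0.182 (others 0.234 to 0.344), and in ER chaperones at −0.059 (others 0.0605 to 0.103) and p53 targets at −0.38 (others −0.144 to −0.0808).

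The ldCil library S11 accounted for 7 among the Irf7-low libraries. Its log2 RPKM of Eln was 7.4 (others 8.21 to 8.39) and of Cacna2d2 1.15 (others 2.03 to 2.32). Its list means were lower for adult contraction and calcium handling at −0.0633 (others 0.419 to 0.559), complex I at −0.303 (others 0.0614 to 0.189) and complexes III, IV and ATP synthase at −0.295 (others 0.162 to 0.273), and for fatty acid oxidation at −0.157 (others 0.187 to 0.294) and cholesterol synthesis at −0.543 (others −0.228 to −0.11). The AngII + ldCil library S15 had a hypoxia list mean of 1.01 (others 0.392 to 0.443).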

How the results depend on the processing

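The genes set apart numbered 522 higher and 538 lower. With 1 added to RPKM the lower count was 321, with no filter 1105, with a mean of at least 2 it was 264 and the higher count 324, and with a minimum difference of 2 the counts were 183 higher and 97 lower. With no filter the lower genes thus outnumbered the 595 higher ones, whereas with quantile normalisation there were 582 higher and 451 lower. Leaving out 1 library gave 525 to 549 higher and 548 to 628 lower genes. It also makes the rule of no overlap easier to meet, so it could hardly have lowered the counts. Apart from differences near 0, no list median or named gene changed direction under any alternative run. Near 0 the sign was not stable: Xist (−0.02) was positive without S5, and Myh6 (−0.01) without S1. Adding 1 to RPKM moved 60 of 272 values by more than the spread between libraries, and quantile normalisation moved 35.

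Leaving out 1 library gave component differences of −62.5 to −32.1 for AngII, −44.2 to −15.9 for ldCil and −54.8 to −37.4 for AngII + ldCil against control, and −14.6 to 16.1 for AngII + ldCil against AngII. For Irf7 the ranges were −4.92 to −3.23, −3.74 to −1.61, −5.24 to −4.18 and −1.49 to 0.20. AngII + ldCil against AngII changed sign on the component without S5 (16.1), without S15 (4.81) and without S5 and S16 (19.8, chosen after seeing the data), and for Irf7 without S5 (0.20), with adjusted p-values from 0.4 (exact permutation) to 0.999 (limma). Limma called 0 genes in each comparison with any 1 library left out. No paired analysis was possible because the library names carry no replicate numbers shared between treatments.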
